A study of Mus musculus with 22 samples.

Results

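The comparison described here sets mouse cardiac fibroblasts 3 days after delivery of a retrovirus that carries Mef2c, Gata4 and Tbx5 on a single polycistronic transcript (MGT) against the same kind of cells 3 days after a lacZ control retrovirus. Its members are the arrays whose labels give day 3: 2 MGT arrays and 2 lacZ arrays, 4 of the 22 arrays of the series. The cells of every group were cardiac fibroblasts of CD1 mice that carry an aMHC-GFP transgene, which puts a fluorescent protein under the Myh6 promoter. The MGT group therefore carries the reporter and the 3 factors, the lacZ group carries the reporter and lacZ, and a further pair of arrays holds uninfected fibroblasts of day 0, labelled CF. The remaining arrays hold MGT and lacZ cells of days 5, 7, 10 and 14, with 2 arrays in each group. Total RNA of the whole culture was hybridised, so fewer cells of a type and less RNA per cell cannot be told apart in any value below. The labels do not say whether the 2 arrays of a group come from separate cultures or animals, so the p-values cover the spread between these samples alone, and it may be technical.

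Mef2c, Gata4 and Tbx5 encode transcription factors that act together in the forming heart. MEF2 proteins bind A/T-rich sites and are widely used in striated muscle, GATA4 is a zinc-finger factor of cardiac and endodermal cells, and TBX5 is a T-box factor of the atria, the left ventricle and the conduction system. Delivered together to fibroblasts, they are used to obtain induced cardiomyocyte-like cells, a conversion in which sarcomere and calcium-handling genes come on while fibroblast genes are turned down. Day 3 is the earliest day after delivery in this series, and the comparison asks what differed between the vectors by then. The series' design text says that the arrays were made to be set beside single-cell RNA sequencing of such cells.

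All 4 day 3 arrays lay on 1 slide, together with the 4 arrays of day 5, while the day 0 arrays lay on another slide. Day 0 means are therefore given as description only, since day and slide cannot be told apart there. The day 3 arrays had between 62.3% and 64.7% of their spots well above background. A level below is log2 of the processed spot intensity minus the array's 75th percentile, so 0 is the level of the 75th percentile. A difference is the MGT mean minus the lacZ mean on that scale, given with its standard error (SE), and 1 unit is a doubling. Differences were tested with limma over all 22 arrays in 11 groups, with Benjamini-Hochberg adjustment over 18061 genes and a threshold of 0.05. Levels are compared only within a probe, and precision is limited by how few arrays there are. The median distance between the 2 arrays of a group was 0.0831 for MGT and 0.0583 for lacZ at day 3, and 0.264 for lacZ at day 14. Each SE and p-value draws on the spread within all 11 groups, so it does not give the scatter of the day 3 pairs alone. All 26 of 26 fibroblast markers were well above background on all 4 arrays. So were 16058 of the 18061 genes tested, all 18 endothelial markers and all 20 macrophage markers measured. Detection alone thus does not check the labelled cell type.

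The probe that gave the Mef2c values is shown, and the promoters of some of the largest rises are shown as their sequence context; no test below uses them. The array measures Mef2c with a 60-base probe that starts at base 1104 of the transcript it was designed on. Its genomic span in mm9, read from the scanner files, is longer than the probe and so includes an intron:
Mef2c probe (chr13:83772788-83775025, mm9): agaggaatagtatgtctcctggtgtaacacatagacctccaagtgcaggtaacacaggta

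The next sequences are the 250 bases before the annotated start of 5 of the genes with the largest rises, from RefSeq on build GRCm38.p6, written 5′ to 3′ on the strand of the gene. Capitals mark matches to the GATA site (AGATAA, also with thymine as its leading base or guanine as its last), CArG (the site of serum response factor) and CRE (TGACGTCA, the cyclic AMP response element), and Mef2c is shown by the first of its 3 listed promoters:
Myl7 (chr11:5898783-5899032, minus strand): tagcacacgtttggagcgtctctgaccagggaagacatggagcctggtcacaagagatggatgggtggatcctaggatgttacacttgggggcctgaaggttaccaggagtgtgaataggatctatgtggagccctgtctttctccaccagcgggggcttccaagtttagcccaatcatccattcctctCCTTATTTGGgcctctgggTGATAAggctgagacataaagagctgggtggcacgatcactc
Scg2 (chr1:79440027-79440276, minus strand): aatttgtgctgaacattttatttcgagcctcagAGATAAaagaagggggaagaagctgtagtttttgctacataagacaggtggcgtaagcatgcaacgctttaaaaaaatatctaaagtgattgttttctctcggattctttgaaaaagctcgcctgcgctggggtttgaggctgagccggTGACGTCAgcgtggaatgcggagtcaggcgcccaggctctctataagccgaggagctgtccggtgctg
Col10a1 (chr10:34389731-34389980, plus strand): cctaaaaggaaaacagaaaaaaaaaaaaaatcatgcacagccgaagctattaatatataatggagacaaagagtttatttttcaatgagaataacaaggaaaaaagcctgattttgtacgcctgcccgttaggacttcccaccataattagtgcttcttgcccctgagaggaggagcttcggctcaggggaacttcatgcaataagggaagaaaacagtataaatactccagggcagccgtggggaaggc
Mef2c (chr13:83503784-83504033, plus strand): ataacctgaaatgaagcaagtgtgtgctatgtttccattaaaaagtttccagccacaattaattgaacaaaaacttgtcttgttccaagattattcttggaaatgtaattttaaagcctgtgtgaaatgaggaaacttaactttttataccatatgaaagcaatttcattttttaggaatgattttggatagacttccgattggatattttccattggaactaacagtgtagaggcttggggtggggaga
Smpx (chrX:157698723-157698972, plus strand): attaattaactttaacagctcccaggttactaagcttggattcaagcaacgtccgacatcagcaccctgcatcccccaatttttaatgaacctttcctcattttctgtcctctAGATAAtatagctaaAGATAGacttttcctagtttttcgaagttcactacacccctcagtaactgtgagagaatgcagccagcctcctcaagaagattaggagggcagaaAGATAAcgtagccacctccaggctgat

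In these windows Myl7 held a CArG match at position -61 and a GATA match at position -42 from the start. Scg2 held a GATA match at position -217 and a CRE match at position -68, and Smpx held GATA matches at positions -137, -122 and -27. Both strands were searched, also for the MEF2 site, the T-box site (AGGTGT) and the interferon-stimulated response element (ISRE, GAAANNGAAA). The windows of Col10a1 and Mef2c held none of the 6 motifs, and no printed match overlapped another. Of the 13789 tested genes with a promoter in the table, 20.0% held a GATA match, 10.4% a T-box match, 2.73% an ISRE match, 2.39% a CRE match, 1.94% a MEF2 match and 1.33% a CArG match. Among the 597 promoters of genes that rose by at least 1, a MEF2 match was found in 33 (5.53%), a GATA match in 21.3%, a T-box match in 14.1% and a CArG match in 2.01%. A match describes letters and not a bound site.

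The delivered factors were not seen alike by their probes. The Mef2c level was 2.84 and 2.95 on the MGT arrays, against -3.89 and -3.88 on the lacZ arrays. The difference of 6.78 ± 0.52 (SE, n = 2 each, limma adjusted p = 4.85e-07) is a 110-fold ratio of intensity. Its SE takes in the spread of the other groups, among them the day 5 lacZ arrays at -1.74 and -4.13. The difference was smaller on later days, at 4.54, 3.86 and 3.59 on days 5, 7 and 10. At day 3 it exceeded the mean of those 3 by 2.78 ± 0.60 (limma adjusted p = 0.00644).

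The Gata4 level was 2.87 and 2.90 on the MGT arrays, against 2.72 and 2.62 on the lacZ arrays, a difference of 0.22 ± 0.08 that missed the threshold (limma adjusted p = 0.0653). The Tbx5 level was -1.45 and -1.30 on the MGT arrays, against -1.72 and -1.79 on the lacZ arrays (difference 0.39 ± 0.25, limma adjusted p = 0.284). Neither difference passed the test. The call of Gata4 was gained under 4 of 19 alternative settings and that of Tbx5 under 2. Those of Tbx5 were the fits to only the 4 day 3 arrays and to only the 8 arrays of days 3 and 5. The Gata4 probe starts at base 3227 of its transcript and the Tbx5 probe at base 2800. Whether the delivered transcript holds these stretches is not stated in the labels or files used here.

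The reporter's parent gene Myh6, the alpha myosin heavy chain of heart muscle, did not separate the vectors at day 3. Its level was 2.41 and 2.20 on the MGT arrays, against 2.15 and 2.17 on the lacZ arrays, and the mean in uninfected day 0 fibroblasts was 2.21. The difference was 0.15 ± 0.14 (limma adjusted p = 0.50).

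Over all genes, 5494 of the 18061 tested differed between MGT and lacZ at day 3, 30.4% of them. Of these, 2230 (12.3% of all) were higher with MGT and 3264 (18.1%) were lower, so 40.6% of the calls were higher. This split moved with the scaling: when only probes detected on all 22 arrays set the 75th percentile, 51.7% of 5297 calls were higher. The median difference over all genes was -0.06 in the main scaling and 0.00 in the other, so small differences are best read against that shift. Large differences were mainly rises: 129 genes were higher by at least 3, and 34 were lower by at least 3.

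The largest rises among genes seen on all 4 arrays were led by muscle genes and by secreted or matrix proteins. Myl7, the atrial regulatory myosin light chain, was at 5.09 and 5.01 on the MGT arrays and at -3.09 and -3.13 on the lacZ arrays. Its difference of 8.15 ± 0.23 was the largest of all 18061 genes (limma adjusted p = 4.00e-11). Scg2, which encodes the granin secretogranin II of dense-core secretory vesicles, was at 5.35 and 5.30 with MGT and at -1.95 and -1.91 with lacZ (difference 7.25 ± 0.14, limma adjusted p = 8.29e-13). For both genes the vectors were far apart beside the spread within a pair. Abi3bp, an extracellular matrix protein, was at 3.06 and 3.03 with MGT against -4.11 and -3.95 with lacZ. Col10a1, the collagen of hypertrophic cartilage, was at 2.33 and 2.05 with MGT against -4.99 and -4.74 with lacZ. Their differences were 7.08 ± 0.30 and 7.06 ± 0.44, and that of Col10a1 was 3.44 in the deposited gene table. None of these 4 genes overlapped between the vectors, as is likely for genes picked by the size of their difference.

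The other members of this group of 12 were Mef2c itself and 7 genes with differences between 5.51 and 6.70. Sln encodes sarcolipin, a small peptide that inhibits the SERCA calcium pump, and was at 3.47 and 3.31 with MGT against -3.21 and -3.40 with lacZ. Fras1 encodes a basement membrane protein and was at 0.89 and 1.04 with MGT against -5.18 and -5.09 with lacZ. Ppp1r3c encodes a subunit that targets protein phosphatase 1 to glycogen, and was at 2.22 and 2.04 with MGT against -3.45 and -3.69 with lacZ. Smpx, Myom2, Ttn and Ryr2, all of striated muscle, rose by 6.15, 5.99, 5.85 and 5.51. In the deposited table the rises of Smpx and Ttn were 3.29 and 3.89. All 12 of these rises had adjusted p-values under the threshold in every alternative setting tried.

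**Figure D1:**
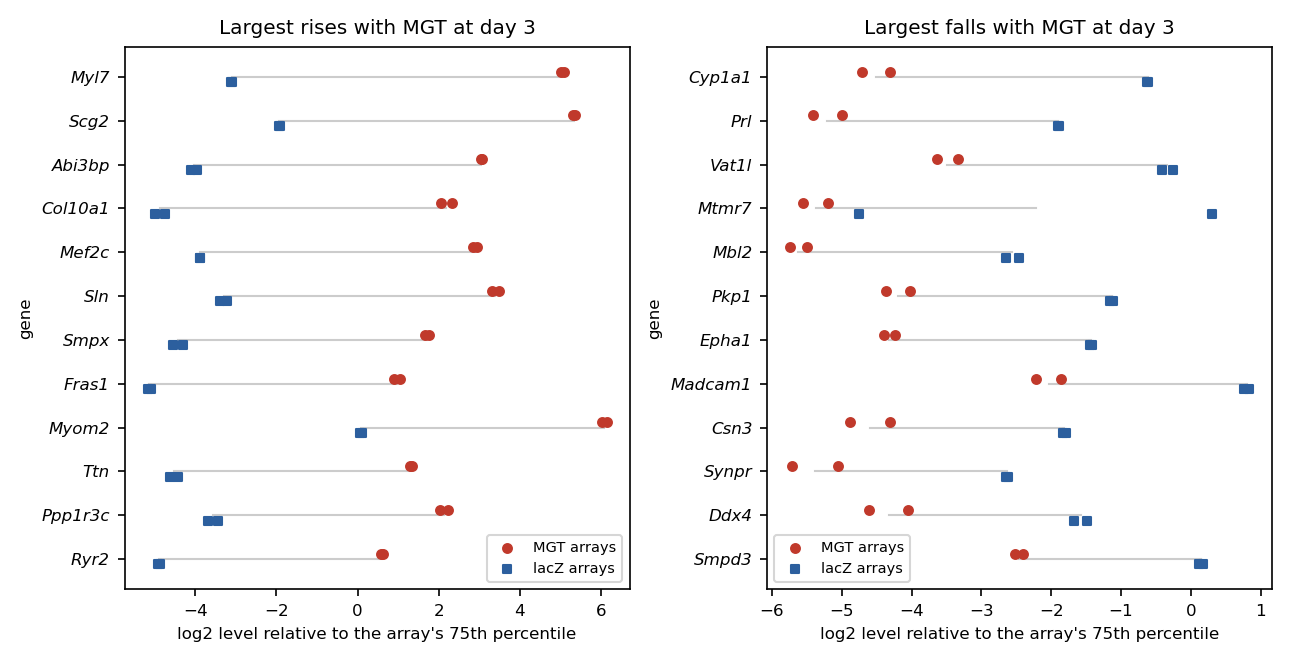
Levels of the 12 genes with the largest rises (left) and the 12 with the largest falls (right) among genes well above background on all 4 day 3 arrays. The x axis is the log2 level relative to the array's 75th percentile, each red circle is an MGT array, each blue square a lacZ array, and grey lines join the means. The pairs lie close together beside the distance between vectors except for Mtmr7, whose lacZ arrays are at 0.31 and -4.75.

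Some genes were well above background on both MGT arrays and on no lacZ array, so their differences have only a lower bound in each case. Of 152 such genes tested, 121 were called higher, beside 12.3% of all genes. Their direction largely follows from this choice by detection. Sphkap, a binding protein of protein kinase A, was at 0.78 and 0.69 with MGT against -6.85 and -7.37 with lacZ, at least 103-fold higher (limma adjusted p = 2.16e-09). Wif1, a secreted inhibitor of Wnt ligands, was at least 47.0-fold higher. Marchf11, a ubiquitin ligase, Srpk3, a muscle protein kinase, Sptb, beta-spectrin, and Pld5, of the phospholipase D family, were at least 25.6-fold, 20.7-fold, 18.4-fold and 16.9-fold higher. The bound sets the MGT mean over all arrays of the group against the higher of the dim probe's own level and the dimmest detected signal of each lacZ array. Every bound given here and below holds for the main values only. The lowest difference over the alternative settings was 4.37 for Sphkap, 4.01 for Wif1 and 3.02 for Marchf11, which is less than their bounds.

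The largest falls were smaller, and all 12 genes lay below the 75th percentile on both MGT arrays. Cyp1a1, a cytochrome P450 that metabolises foreign compounds, was at -4.71 and -4.30 on the MGT arrays, against -0.62 and -0.61 on the lacZ arrays. Its difference of -3.89 ± 0.44 was the largest fall among genes seen on all 4 arrays (limma adjusted p = 1.92e-05). The day 0 mean was 0.02, and the lacZ level itself was lower later. Its means were -1.78, -4.89 and -6.87 on days 5, 7 and 10, with days 7 and 10 on another slide. Prl, the hormone prolactin, was at -5.0 and -5.42 with MGT against -1.89 and -1.91 with lacZ. Smpd3, a neutral sphingomyelinase, was at -2.51 and -2.40 with MGT against 0.17 and 0.12 with lacZ. These 3 genes did not overlap between the vectors, which is again likely for genes picked by the size of their fall.

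Pkp1 and Madcam1 act in cell adhesion. Pkp1, a desmosomal plaque protein, fell by 3.06 ± 0.29, with -4.37 and -4.02 on the MGT arrays and -1.11 and -1.16 on the lacZ arrays. Madcam1, a cell adhesion molecule of mucosal vessels, fell by 2.83 ± 0.14. The falls of Mbl2 (mannose-binding lectin, -3.07), Epha1 (an ephrin receptor, -2.89), Csn3 (kappa-casein, -2.79), Synpr (synaptoporin, -2.76), Ddx4 (a germ cell RNA helicase, -2.75) and Vat1l (-3.15) were of the same order, and the call of Csn3 was lost in 1 setting. Mtmr7 was at -5.20 and -5.56 with MGT but at 0.31 and -4.75 with lacZ, and its difference of -3.15 ± 1.06 (limma adjusted p = 0.0377) rested on lacZ replicate 1. Without that array it was -0.63 (limma adjusted p = 0.354), and the call was lost under 10 of 19 alternative settings.

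Another 280 tested genes were well above background on both lacZ arrays and on no MGT array. Of these, 160 were called lower, beside 18.1% of all genes, and their direction again largely follows from the choice. Eprn was at least 6.80-fold lower, Mep1a, a metalloprotease, at least 6.26-fold, and Has1, a hyaluronan synthase, at least 6.21-fold. Egr4, a zinc-finger gene of the immediate early class, was at least 6.07-fold lower, Clec2h, a lectin, at least 5.67-fold, and Hfm1, a meiotic helicase, at least 5.50-fold. The Has1 level was -6.06 and -5.93 with MGT against -3.24 and -3.16 with lacZ, and both vectors lay below the day 0 mean of -0.27. These bounds are far smaller than those of the rises. Some alternative settings gave less than these bounds too, with differences of -1.36 for Eprn and -1.22 for Has1.

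The sarcomere genes as a group were higher with MGT by day 3. Of 33 genes of the contractile apparatus, 32 were measured. Of these, 22 rose, none fell and 10 missed the threshold, beside 12.3% of all genes higher. The median difference was 2.36, beside -0.06 over all genes, and the number that rose was between 20 and 24 over the alternative settings. The members that rose include thick-filament, thin-filament, Z-disc and M-band genes. Ttn, the giant elastic filament titin, was at 1.29 and 1.35 with MGT against -4.43 and -4.63 with lacZ. Myom2, the M-band protein myomesin 2, was at 6.14 and 6.02 with MGT against 0.06 and 0.12 with lacZ. Smpx, a small muscle protein, was at 1.77 and 1.67 with MGT against -4.54 and -4.31 with lacZ. Of the 27 promoters available for the list, 7 (25.9%) held a CArG match, 4 (14.8%) a MEF2 match and 11 (40.7%) a GATA match, beside 1.33%, 1.94% and 20.0% of all promoters.

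Members named here after their values were seen fill in the rest of the range. Myl4, the atrial essential light chain, was at 8.49 and 8.57 with MGT against 3.16 and 3.18 with lacZ (difference 5.36 ± 0.11, limma adjusted p = 1.44e-12). Tnnt2, cardiac troponin T, was at 7.57 and 7.48 with MGT against 5.50 and 5.42 with lacZ, a difference of 2.06 ± 0.12. Tnnt2 was thus well expressed with lacZ too, and its lacZ mean lay above the day 0 mean of 1.96. Tnni3, cardiac troponin I, rose by 3.28 ± 0.53, Mybpc3, cardiac myosin-binding protein C, by 2.61 ± 0.09 and Actn2, the Z-disc alpha-actinin, by 1.17 ± 0.35.

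The sarcomere members that missed the threshold numbered 10. Myl2 and Myl3, the ventricular light chains, differed by 0.08 ± 0.19 and 0.15 ± 0.18, and Myh7, the beta myosin heavy chain, by 0.01 ± 0.20. Myl2 was at -0.48 and -0.61 with MGT against -0.61 and -0.65 with lacZ, with a day 0 mean of 1.11. The 7 others were Myh6, Myl9, Nexn, Acta1, Synpo2l, Nebl and Pdlim5, with differences between -0.23 and 0.17. Cardiomyocyte genes were not absent from the lacZ arrays at this time. The median sarcomere level was 2.07 in day 3 MGT cells and -0.61 in day 3 lacZ cells, beside -0.95 in day 0 cells, and in lacZ cells it was -2.44 on day 5, -2.38 on day 7 and -3.15 on day 10. Of the 32 members, 25 had a lower lacZ level on day 5 than on day 3, so the day 3 differences are set against a lacZ level above that of later days. Days 3 and 5 share a slide, and the part of this lacZ level in the differences was not tested.

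**Figure D2:**
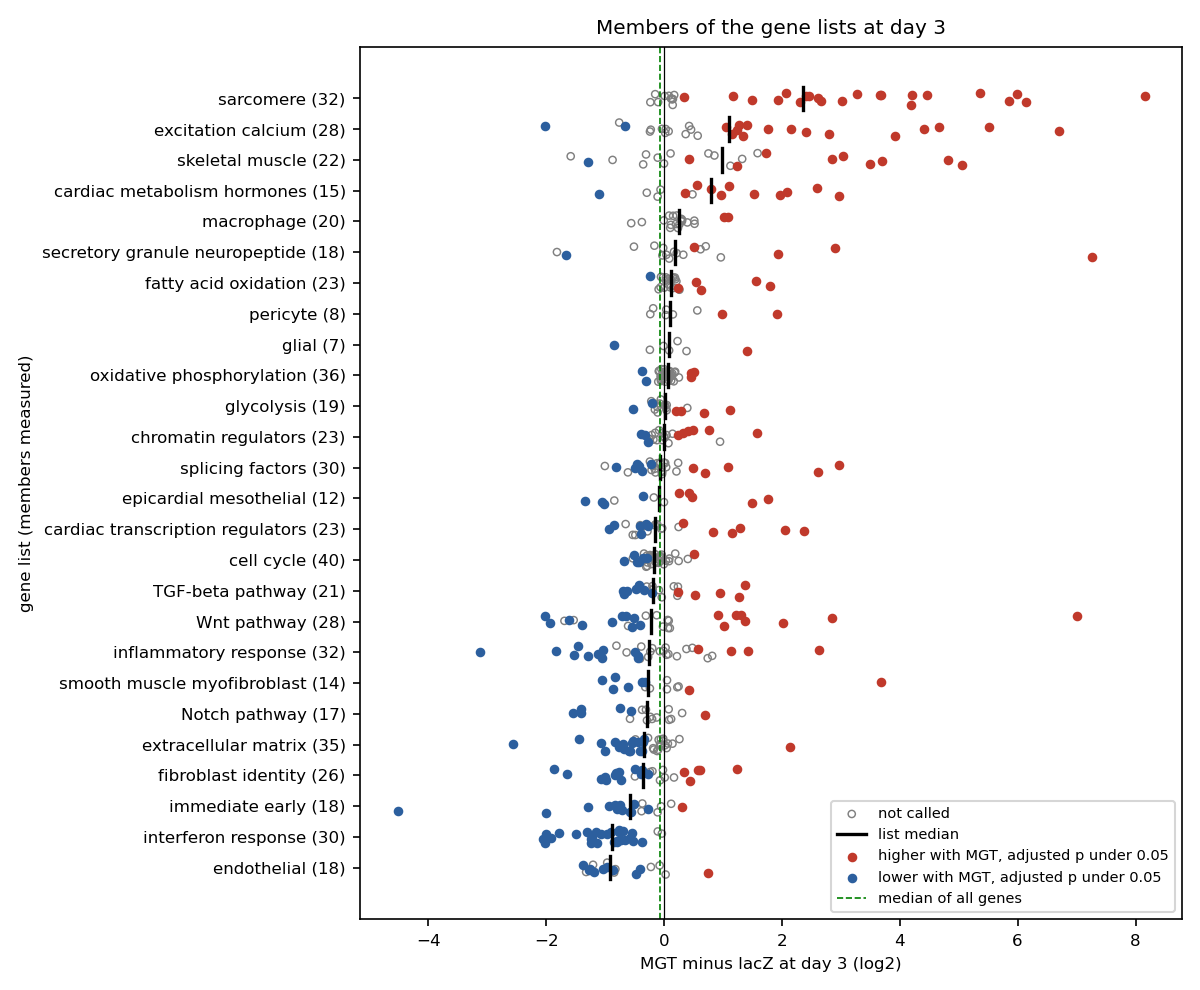
MGT minus lacZ at day 3 for the measured members of the 26 gene lists, ordered by median. Each point is a gene, filled red or blue where it was higher or lower with an adjusted p under 0.05 and open where it was not, the black bar is the list median and the dashed line the median of all genes (-0.06). Sarcomere genes have the highest median (2.36), and endothelial (-0.91) and interferon response genes (-0.88) the lowest; fitted values are drawn for genes that the text gives only as bounds.

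Of 28 measured genes of calcium handling and excitation, 15 rose, 2 fell and 11 missed the threshold, beside 12.3% of all genes higher. The median difference was 1.10, or 0.70 with normexp background correction. Ryr2, the calcium release channel of the cardiac sarcoplasmic reticulum, was at 0.58 and 0.63 with MGT against -4.93 and -4.88 with lacZ (difference 5.51 ± 0.30, limma adjusted p = 1.73e-08). Casq2, the calcium store protein calsequestrin 2, was at 2.59 and 2.55 with MGT against -2.08 and -2.11 with lacZ. Trdn, the triadin that anchors calsequestrin to the release channel, was at -0.48 and -0.47 with MGT against -4.49 and -5.29 with lacZ. With sarcolipin, these are parts of the release and reuptake machinery of the sarcoplasmic reticulum. The members that did not pass include Pln, phospholamban, at 0.57, and Slc8a1, the sodium-calcium exchanger, at 0.37. Kcnq1, a potassium channel subunit, fell by 2.02 ± 0.47. The T-type calcium channel gene Cacna1g fell by 0.66 ± 0.19, a call lost under 8 of 19 settings and whichever of the 4 arrays was left out. Its highest limma adjusted p over all 19 settings was 0.375, in a setting that kept the 4 arrays.

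Cardiac transcription regulators were split: 6 rose, 6 fell and 11 of 23 missed the threshold, with a median of -0.16. Each direction held 26.1% of the list, beside 12.3% of all genes higher and 18.1% lower. The number that fell was between 1 and 9 over the settings, and was 1 without lacZ replicate 1, 2 without MGT replicate 1 and 3 without lacZ replicate 2. Hopx, a homeodomain cofactor of cardiac progenitors, was at -0.99 and -0.91 with MGT against -3.03 and -2.99 with lacZ (difference 2.06 ± 0.16). Myocd, the myocardin coactivator of serum response factor, was at -0.68 and -0.81 with MGT against -2.11 and -1.96 with lacZ (difference 1.29 ± 0.20). Tbx2, a T-box repressor of chamber genes, rose by 1.16 ± 0.08. Esrrg, an oestrogen-related receptor of oxidative metabolism, rose by 2.38 ± 0.36, but was not well above background on every day 3 array.

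Among the falls, Zfpm2, a cofactor of GATA4, was at -0.13 and 0.15 with MGT against 0.84 and 0.87 with lacZ (difference -0.84 ± 0.10, limma adjusted p = 3.95e-05). Srf, serum response factor itself, fell by 0.41 ± 0.10, and Meis1, a homeodomain factor, by 0.39 ± 0.11. The fall of Isl1, a factor of second heart field progenitors, was -0.92 ± 0.30 and lost its call whichever of the 4 arrays was left out, as did that of Meis1. The call of Srf was lost for 1 of the 4 (adjusted p = 0.0539). Nkx2-5 differed by -0.40, Gata6 by -0.05 and Mef2a by -0.16 with no call.

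Cardiac metabolic genes and hormones rose in 10 of 15 cases (66.7%, beside 12.3% of all genes). There was 1 fall (6.67%, beside 18.1%), and the median was 0.81. Mb, the oxygen-binding myoglobin, was at -0.38 and -0.53 with MGT against -3.52 and -3.32 with lacZ (difference 2.97 ± 0.37). Pgam2, the muscle phosphoglycerate mutase, was at 2.10 and 1.92 with MGT against -0.56 and -0.60 with lacZ. Slc2a4, the insulin-responsive glucose transporter, rose by 2.09 ± 0.12 and Eno3, the muscle enolase, by 1.98 ± 0.10. Of the natriuretic peptide genes, Nppa rose by 0.57 ± 0.15 (limma adjusted p = 0.00961) and Nppb differed by 0.48 ± 0.23 (limma adjusted p = 0.136). Ppargc1a, a coactivator of mitochondrial biogenesis, was at -4.21 and -3.83 with MGT against -2.92 and -2.92 with lacZ, a fall of 1.10 ± 0.20 that was lost in 1 setting (adjusted p = 0.0591). On days 5, 7 and 10 its difference was 1.86, 1.92 and 3.0, so its sign at day 3 was opposite to that of all 3 later days.

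Of 22 measured genes of skeletal muscle fibres, 9 rose, 1 fell and 12 missed the threshold, beside 12.3% of all genes higher. The median was 0.99, or 0.39 with normexp background correction and 0.65 in the deposited table. Myh1, a fast skeletal myosin heavy chain, was at 2.83 and 2.93 with MGT against -1.94 and -1.93 with lacZ (difference 4.81 ± 0.14). Myl1, the fast skeletal light chain, was at -0.59 and -0.84 with MGT against -5.61 and -5.91 with lacZ. It was not well above background on every day 3 array, and its difference of 5.05 was 2.69 in the lowest setting. Mybph, myosin-binding protein H, rose by 3.69 ± 0.73, and Myh2 rose by 3.49 ± 0.17. The myogenic regulators Myod1 and Myog were not well above background in either group. Chrna1, a subunit of the muscle acetylcholine receptor, was at least 2.44-fold lower, a call lost whichever of the 4 arrays was left out.

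The very large rise of Scg2 was not shared by most genes of secretory granules and neuropeptides. Of 18 measured, 4 rose (22.2%, beside 12.3% of all genes), 1 fell (5.56%, beside 18.1%) and 13 missed the threshold, with a median of 0.19. The called share of both directions together, 27.8%, was near that of all genes. Scg5, a chaperone of prohormone convertase 2, was at -0.80 and -0.92 with MGT against -3.83 and -3.71 with lacZ (difference 2.91 ± 0.13). Penk, the enkephalin precursor, rose by 1.93 ± 0.44, and Syt4, a synaptotagmin, by 0.51 ± 0.12. Vgf, a granin-like neuropeptide precursor, was at -1.44 and -1.52 with MGT against 0.09 and 0.29 with lacZ, a fall of 1.67 ± 0.16. Chgb, another granin, differed by -0.01, and Chga by 0.96 with no call. The call of Syt4 was lost under 2 settings.

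Genes of the Wnt pathway, whose ligands act through frizzled receptors and are held in check by secreted antagonists, were split. Of 28 measured, 8 rose (28.6%, beside 12.3% of all genes) and 10 fell (35.7%, beside 18.1%), with a median of -0.22. Among ligands, Wnt5b was at 1.96 and 1.95 with MGT against -0.84 and -0.93 with lacZ (difference 2.84 ± 0.09, limma adjusted p = 9.11e-11). Wnt4 fell by 1.39 ± 0.23 and was not well above background on every array. Of the secreted antagonists, Wif1 rose as given above, while Sfrp1 was at -1.90 and -1.64 with MGT against 0.22 and 0.28 with lacZ. Sfrp4 fell by 1.93 ± 0.23, Sfrp2 by 1.62 ± 0.25 and Sfrp1 by 2.02 ± 0.22. The antagonists thus moved both ways. Axin2, a feedback inhibitor that is a common readout of the pathway, was at -3.35 and -3.37 with MGT against -5.32 and -5.45 with lacZ (difference 2.02 ± 0.33), a call lost in 1 setting (adjusted p = 0.0544). Nkd2, another inhibitor, rose by 1.38 ± 0.12 on its brightest probe, but its probes disagreed: the mean of its probes differed by -0.08 and the deposited table by -0.05, with no call.

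Of 17 Notch pathway genes, 1 rose (5.88%, beside 12.3% of all genes) and 5 fell (29.4%, beside 18.1%), with a median of -0.29. Both directions together made 35.3%, near the 30.4% of all genes. The number that fell was between 3 and 9 over the settings, with 3 without MGT replicate 2 and 3 without lacZ replicate 2, and the median was -0.18 without lacZ replicate 1. Hey1, a target repressor of Notch, was at -1.98 and -1.85 with MGT against -2.59 and -2.63 with lacZ, a rise of 0.70 ± 0.11. Jag1, a ligand, was at 1.72 and 1.73 with MGT against 2.46 and 2.48 with lacZ, a fall of 0.74 ± 0.07. Notch4, a receptor, fell by 1.41 ± 0.11. Hey2 was at least 2.51-fold lower, and Nrarp, a feedback inhibitor, at least 2.91-fold lower, with the call of Nrarp lost whichever array was left out.

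In the TGF-beta pathway, a main driver of fibroblast activation, 5 of 21 genes rose (23.8%, beside 12.3% of all genes). Another 8 fell (38.1%, beside 18.1%), and the median was -0.19. The ligand Tgfb2 was at 4.39 and 4.38 with MGT against 3.07 and 3.14 with lacZ (difference 1.28 ± 0.07). Tgfb3, also a ligand, rose by 0.53 ± 0.10, and the receptor Tgfbr1 by 0.94 ± 0.09. Ltbp1, a latent TGF-beta binding protein, rose by 1.37 ± 0.11, while Ltbp2 of the same family fell by 0.69 ± 0.12. The co-receptor Eng fell by 0.47 ± 0.11. Tgfbi, an induced matrix protein, fell by 0.63 ± 0.21, a call lost whichever of the 4 arrays was left out.

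Fibroblast identity genes were lower in part, and less so than on later days. Of 26 measured, 14 fell, 5 rose and 7 missed the threshold, beside 18.1% of all genes lower, and the median was -0.36. Dpp4, a surface peptidase of fibroblast subsets, was at -1.83 and -2.30 with MGT against -0.24 and -0.18 with lacZ (difference -1.86 ± 0.20). Lum, the small proteoglycan lumican, was at 3.50 and 3.46 with MGT against 4.42 and 4.54 with lacZ, a fall of 1.00 ± 0.11. Ly6a, the Sca-1 antigen, fell by 1.64 ± 0.32, and Mfap4, a microfibril protein, by 1.07 ± 0.14. The abundant matrix genes did not pass: Col1a1 was at 7.38 and 7.49 with MGT against 7.42 and 7.49 with lacZ, with a difference of -0.02 ± 0.28. Fn1, fibronectin, differed by 0.01 ± 0.12, Dcn, decorin, by -0.20 ± 0.12, and Tcf21, a transcription factor of cardiac fibroblasts, by 0.17 ± 0.08.

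Thy1, a surface antigen used to sort fibroblasts, went the other way, at 6.4 and 6.47 with MGT against 5.21 and 5.17 with lacZ (difference 1.24 ± 0.08, limma adjusted p = 1.80e-07). Mfap5, a microfibril protein, S100a4, a calcium-binding protein also known as fibroblast-specific protein, and Gsn, the actin-severing gelsolin, rose by 0.61, 0.57 and 0.45. Summed over the list on the linear scale, the fibroblast markers came to 1843 and 1901 times the 75th percentile on the MGT arrays, against 1900 and 1931 on the lacZ arrays. These sums overlapped between the vectors.

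Of 35 extracellular matrix genes, 17 fell and 1 rose, beside 18.1% of all genes lower. The median was -0.34, or -0.20 with normexp background correction. Has2, the main hyaluronan synthase, was at -1.73 and -1.99 with MGT against 0.67 and 0.73 with lacZ (difference -2.56 ± 0.15, limma adjusted p = 3.24e-08). Spon2, a secreted matrix protein, was at 2.63 and 2.52 with MGT against 4.0 and 4.02 with lacZ. Col11a1, a fibrillar collagen, fell by 1.07 ± 0.08, and Timp3, an inhibitor of matrix proteases, by 1.00 ± 0.13. The rise was Col12a1, a collagen that associates with fibrils, at 3.41 and 3.55 with MGT against 1.32 and 1.37 with lacZ. Timp1 and Col16a1 each lacked a value on 1 lacZ array, and their fits rest on the 3 others.

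Of 14 smooth muscle and myofibroblast genes, 6 fell (42.9%, beside 18.1% of all genes) and 2 rose (14.3%, beside 12.3%). Des, the muscle intermediate filament desmin, also a member of the sarcomere list, was at 2.97 and 2.95 with MGT against -0.74 and -0.72 with lacZ, a rise of 3.69 ± 0.06. Tpm2, a tropomyosin, rose by 0.42 ± 0.11, a call lost under 3 settings. Cnn1, calponin, was at 4.25 and 4.25 with MGT against 4.86 and 4.87 with lacZ. Synpo2, Lmod1 and Smtn, all actin-associated, fell by 1.05, 0.87 and 0.84. Acta2, the smooth muscle actin of myofibroblasts, was at 8.36 and 8.47 with MGT against 8.37 and 8.36 with lacZ and missed the threshold (0.05 ± 0.12), as did Tagln (-0.24 ± 0.17).

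Interferon response genes were lower with MGT almost throughout. These genes are switched on by type I interferon and encode antiviral proteins. All 30 were measured. Of these, 28 fell (93.3%, beside 18.1% of all genes) and none rose, beside 12.3% of all genes higher. The median difference was -0.88, beside -0.06 over all genes. Mx1, an antiviral GTPase, was at -2.33 and -2.48 with MGT against -0.38 and -0.32 with lacZ (difference -2.05 ± 0.36, limma adjusted p = 0.000763). Oasl1, of the oligoadenylate synthetase family, was at 2.57 and 2.50 with MGT against 4.51 and 4.60 with lacZ, a fall of 2.02 ± 0.25. Mx2 fell by 2.0 ± 0.23, and the chemokine gene Cxcl10 was at 2.25 and 2.01 with MGT against 4.01 and 4.07 with lacZ. Gbp2 (-0.04) and Ifi27l2a (-0.11) missed the threshold. The members summed to 412 and 403 times the 75th percentile on the MGT arrays, against 722 and 725 on the lacZ arrays, so the vectors did not overlap.

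The level of these genes also changed with time in lacZ cells. The median level of the 30 genes was 2.90 with MGT and 3.96 with lacZ at day 3, beside 4.15 at day 0. All 30 had a lower lacZ level on day 5 than on day 3. The median difference was -1.71 on day 5, -0.88 on day 7 and 0.15 on day 10. The number that fell at day 3 was between 20 and 28 over the alternative settings. An ISRE match stood in 11 of the 20 promoters available for the list (55.0%), beside 8.21% of promoters of genes that fell by at least 1 and 2.73% of all.

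**Figure D3:**
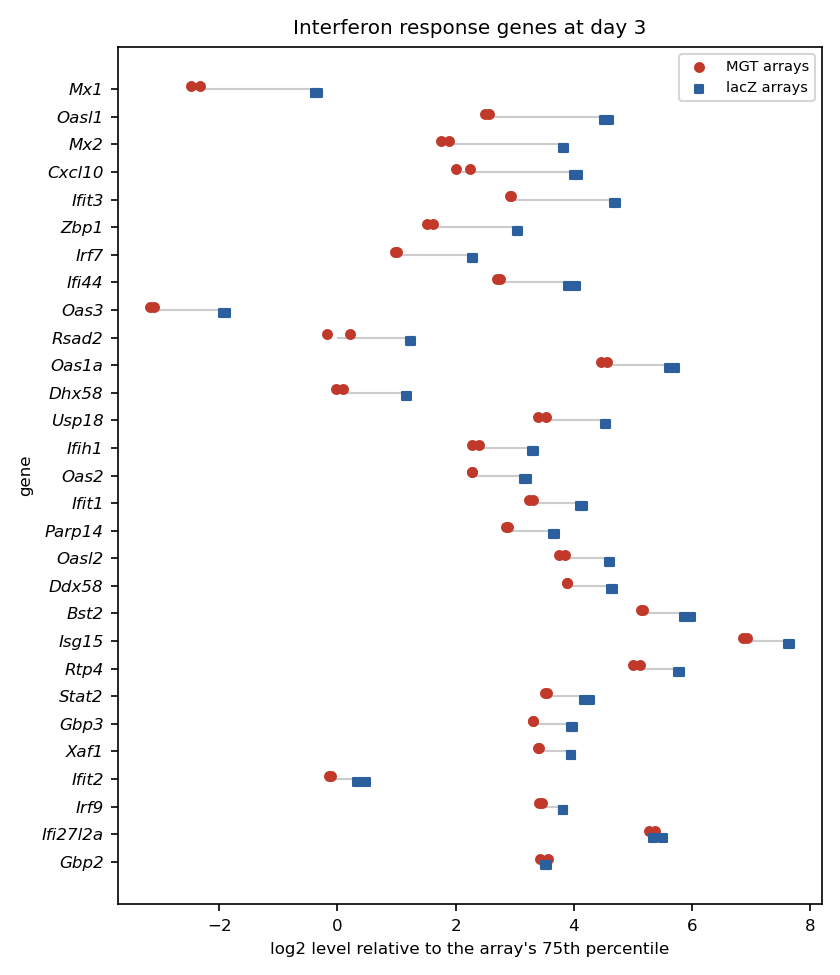
Levels of 29 of the 30 interferon response genes on the 4 day 3 arrays, ordered by difference. The x axis is the log2 level relative to the array's 75th percentile, red circles are MGT arrays and blue squares lacZ arrays. The lacZ arrays lie to the right for the 27 called genes drawn, from Mx1 (difference -2.05) to Irf9 (-0.38), and close to the MGT arrays for Ifi27l2a and Gbp2.

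Inflammatory genes were mixed, with 11 of 32 lower (34.4%, beside 18.1% of all genes) and 4 higher (12.5%, beside 12.3%). The median was -0.25. Il6, the cytokine interleukin 6, was at 3.46 and 3.35 with MGT against 4.86 and 4.85 with lacZ (difference -1.45 ± 0.13). Ccl5, a chemokine, was at 0.68 and 0.63 with MGT against 2.46 and 2.51 with lacZ. Mmp3, the protease stromelysin 1, fell by 1.53 ± 0.28, and Csf2, a myeloid growth factor, was at least 5.47-fold lower. On the other side, Saa3, an acute phase protein, was at 6.68 and 6.75 with MGT against 4.07 and 4.11 with lacZ, a rise of 2.63 ± 0.20. C3, the central complement component, rose by 1.42 ± 0.11, Il33, an alarmin, by 1.13 ± 0.17, and Nfkbiz, a nuclear cofactor of NF-kappa-B, by 0.58 ± 0.13. The list thus holds clear changes in both directions.

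Immediate early genes, which respond within minutes to growth factors and stress, were lower in 12 of 18 cases (66.7%, beside 18.1% of all genes). The list had 1 rise (5.56%, beside 12.3%) and a median of -0.57. Myc was at 0.96 and 0.99 with MGT against 2.24 and 2.29 with lacZ (difference -1.28 ± 0.14). Fosl1, a subunit of AP-1, was at -1.65 and -1.43 with MGT against 0.42 and 0.50 with lacZ, a fall of 1.99 ± 0.10. Klf4 fell by 0.94 ± 0.08, and Egr4 has the bound given above. Nr4a1, an orphan nuclear receptor, rose by 0.31 ± 0.08, a call lost under 2 settings.

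Cell cycle genes hardly differed at the threshold: 6 of 40 fell and 1 rose, beside 30.4% of all genes called, with a median of -0.16. Ccnd1, cyclin D1, was at 2.07 and 2.07 with MGT against 2.75 and 2.75 with lacZ, a fall of 0.68 ± 0.08. Mcm2, a subunit of the replicative helicase, fell by 0.51 ± 0.13, Cenpe, a kinetochore motor, by 0.46 ± 0.12 and the inhibitor Cdkn2a by 0.43 ± 0.12. The calls of Cenpe and Cdkn2a were lost under 4 and 3 settings. Cenpa, the centromeric histone, rose by 0.51 ± 0.14, a call lost whichever of the 4 arrays was left out. Mki67, the proliferation antigen, differed by -0.07. The number that fell was between 3 and 20 over the settings, so the count for this list depends on the fit.

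Genes of energy metabolism differed in a few members. In fatty acid oxidation, 5 of 23 genes were higher (21.7%, beside 12.3% of all genes) and 1 was lower (4.35%, beside 18.1%), with a median of 0.12. Both directions together made 26.1%, beside 30.4% of all genes. Pdk4, a kinase that shuts pyruvate out of oxidation, was at 0.22 and 0.14 with MGT against -1.64 and -1.59 with lacZ, a rise of 1.79 ± 0.17. Acaa2, the mitochondrial thiolase, was at 4.91 and 4.81 with MGT against 3.24 and 3.34 with lacZ, and the acyl-CoA dehydrogenases Acadl and Acadm rose by 0.62 and 0.54.

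Of 19 glycolytic genes, 4 rose (21.1%, beside 12.3% of all genes) and 2 fell (10.5%, beside 18.1%). Both directions together made 31.6%, near the 30.4% of all genes. Ldhb, the heart form of lactate dehydrogenase, rose by 1.11 ± 0.14 and Pfkm, the muscle phosphofructokinase, by 0.67 ± 0.06. Pfkp and Gpi1 rose by 0.29 and 0.20, and Slc16a3, a lactate exporter, and Pfkfb3, a regulator of glycolysis, fell by 0.53 and 0.20. The calls of these last 4 were lost under 6 to 10 of the 19 settings. Of 36 genes of oxidative phosphorylation, 3 rose and 2 fell (13.9% called, median 0.06), with differences between -0.37 for Atp5c1 and 0.50 for Ndufa1. Cox6b1 rose by 0.46, and Cycs, cytochrome c, fell by 0.31. The other 31 missed the threshold, and the calls of Cycs, Cox6b1 and Atp5c1 were lost under 6, 2 and 2 settings.

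Of 30 splicing factors, 5 rose (16.7%, beside 12.3% of all genes) and 6 fell (20.0%, beside 18.1%), with a median of -0.07 and between 3 and 11 lower over the settings. The muscle splicing regulators were the largest rises. Rbm24 was at -2.54 and -2.63 with MGT against -5.25 and -5.15 with lacZ, a difference of 2.61 ± 0.24. Rbm20, which controls titin splicing, was well above background with MGT only and at least 3.91-fold higher. Qk, the quaking RNA-binding protein, was at 3.54 and 3.55 with MGT against 2.43 and 2.51 with lacZ (difference 1.08 ± 0.11), and Mbnl3, of the muscleblind family, rose by 0.70 ± 0.12. Celf1 was at 0.65 and 0.62 with MGT against 1.48 and 1.43 with lacZ, a fall of 0.82 ± 0.06. Ptbp2, Srsf7 and Mbnl1 fell by 0.50, 0.46 and 0.42, each losing its call under 1 or 2 settings.

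Of 23 chromatin regulators, 6 rose (26.1%, beside 12.3% of all genes) and 3 fell (13%, beside 18.1%). The sign of the list's near-zero median changed with the scaling. Tet1, a DNA demethylase, was at -1.75 and -1.59 with MGT against -3.18 and -3.33 with lacZ (difference 1.58 ± 0.18). Smarcd3, the BAF60c subunit of a chromatin remodeller of heart and muscle, was at 2.63 and 2.57 with MGT against 1.84 and 1.83 with lacZ, a rise of 0.76 ± 0.09. Tet2 and Hdac5 rose by 0.50 and 0.40. The falls were Eed, Suz12 and Ezh2, the core of Polycomb repressive complex 2, by 0.39, 0.33 and 0.27. The calls of Suz12 and Ezh2 were each lost under 6 settings and that of Eed under 1.

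Markers of other cell types that a fibroblast culture from heart can hold were measured too. Endothelial markers fell in 9 of 18 cases (50%, beside 18.1% of all genes) and rose in 1 (5.56%, beside 12.3%). The median was -0.91, with between 3 and 14 lower over the settings. Sox17, an endothelial transcription factor, was at -1.72 and -1.62 with MGT against -0.33 and -0.25 with lacZ, Cldn5, a tight junction protein, fell by 1.27 ± 0.27, and Flt1, a VEGF receptor, rose by 0.74 ± 0.10. Robo4 and Sox18 fell by 1.26 and 1.18. The calls of Sox17 and Robo4 were lost whichever of the 4 arrays was left out, and that of Sox18 for 3 of the 4. The endothelial sum was 95.9 and 101 with MGT against 115 and 116 with lacZ.

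Of 20 macrophage markers, 2 rose and none fell (median 0.25). The called share of 10% was below the 30.4% of all genes, and 12.3% of all genes were higher. Over the settings, between 1 and 10 rose and between 0 and 2 fell, and 1 rose whichever of the 4 arrays was left out. Cd14, a lipopolysaccharide co-receptor, was at 1.95 and 1.97 with MGT against 0.87 and 0.89 with lacZ. Cx3cr1, a chemokine receptor, rose by 1.03 ± 0.35, a call lost under 10 settings. The macrophage sum was 192 and 181 with MGT against 150 and 153 with lacZ. Macrophage markers were thus present in both groups, with sums that did not overlap, and their part in the inflammatory genes was not tested.

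Of 12 epicardial and mesothelial markers, 5 rose (41.7%, beside 12.3% of all genes) and 4 fell (33.3%, beside 18.1%). Msln, mesothelin, was at 3.75 and 3.75 with MGT against 1.95 and 2.03 with lacZ, a rise of 1.76 ± 0.16. Upk1b, a uroplakin, rose by 1.48 ± 0.14, Tbx18, an epicardial T-box factor, by 0.43 ± 0.08 and Krt19, a keratin, by 0.48 ± 0.16, the last a call lost whichever array was left out. Lrrn4, Bnc1, Gpm6a and the epicardial factor Wt1 fell by 1.35, 1.05, 1.02 and 0.36, with the call of Wt1 lost in 1 setting. The sum was 48.1 and 48.9 with MGT against 37.7 and 38 with lacZ, so markers of the same list went both ways. Of 8 pericyte markers, Cspg4 rose by 0.98 and Kcnj8 was also called higher (1.93), but its probe was well above background on 1 MGT array and no lacZ array. Of 7 glial markers, S100b fell by 0.86 and Kcna1 was called higher (1.41), with 1 lacZ array not well above background. The called shares of the pericyte and glial lists were 25% and 28.6%, beside 30.4% of all genes. With normexp background correction Kcnj8 differed by 0.41 and Kcna1 by 0.68, and neither was called. The part of any of these cell types in the fibroblast, matrix or interferon results was not tested.

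Most day 3 calls were met again on later days. Of the 2230 genes higher at day 3, 1698 (76.1%) were also higher at day 5, which is 58.2% of the day 5 rises. Of the 3264 lower genes, 2273 (69.6%) were also lower at day 5, which is 57.4% of the day 5 falls. On days 5, 7 and 10, 38.1%, 37.3% and 39.3% of all genes were called. In all, 1336 rises and 1602 falls were called on each of days 3, 5, 7 and 10, while 54 genes were higher at day 3 and lower on both days 7 and 10, and 45 did the reverse.

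The size of the day 3 difference was tested against the mean of the day 5, 7 and 10 differences, each of which was formed within its own slide. It differed for 2774 genes (15.4%), above the later mean for 1449 (8.02%) and below it for 1325 (7.34%). Of the 32 sarcomere genes, 24 were below the later mean and 1 above. Of the 26 fibroblast genes, 19 were above it and none below, and of the 35 matrix genes 19 were above and 1 below. The median differences of these 3 lists were 2.36, -0.36 and -0.34 at day 3, and 4.02, -1.18 and -1.08 at day 5. The sarcomere rises and the fibroblast and matrix falls were thus mostly smaller at day 3.

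Myh6 showed the largest gap. Its MGT mean was 2.31, 3.11, 6.31 and 7.18 on days 3, 5, 7 and 10, while its lacZ mean was 2.16, -1.89, -1.36 and -2.70. The day 3 difference lay below the later mean by 7.37 on the log2 scale (difference of differences -7.37 ± 0.16, limma adjusted p = 3.17e-11). The lacZ level was thus lower on day 5 than on day 3, and the MGT level was higher. Actc1, cardiac alpha-actin, was at 6.89 and 6.90 with MGT at day 3 against 2.72 and 2.68 with lacZ, a rise of 4.19 ± 0.11. Its difference was 9.69 on day 5, when the lacZ mean was -1.66, and the day 3 difference lay below the later mean (-5.31 ± 0.13). Myh7 (-2.59), Myom2 (-2.50), Ank1, an ankyrin of the membrane skeleton (-2.78), and Serpind1, the plasma inhibitor heparin cofactor II (-3.02), were also below the later mean. Serpind1 was at -0.46 and -0.66 with MGT against -0.51 and -0.63 with lacZ at day 3, with a difference of 0.01 ± 0.10.

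**Figure D4:**
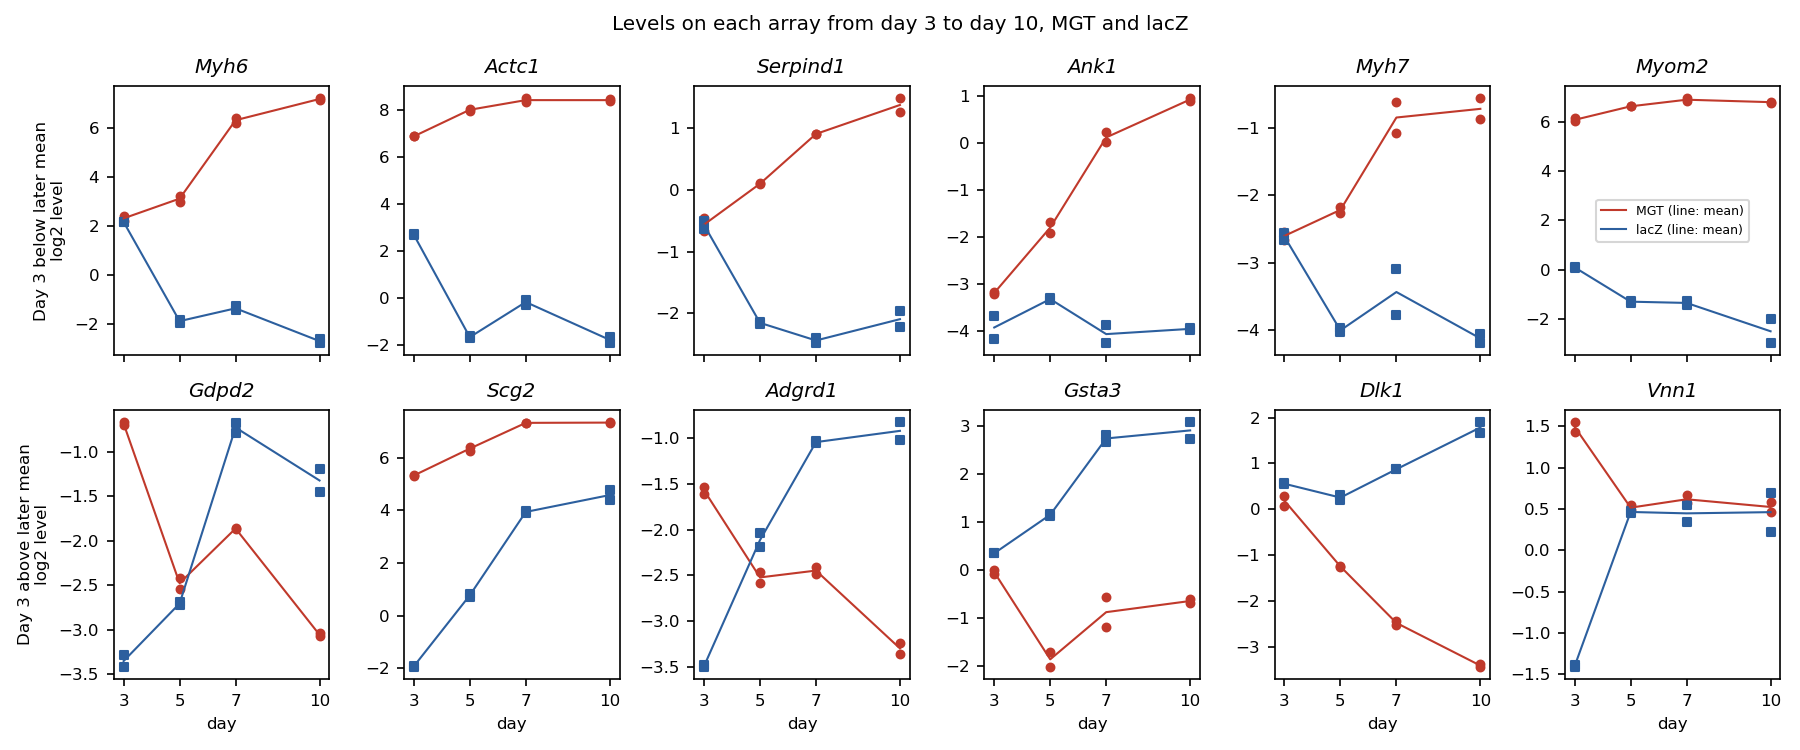
Levels on each array on days 3, 5, 7 and 10 for the 6 genes whose day 3 difference lay furthest below the later mean (top) and the 6 furthest above it (bottom). The y axis is the log2 level relative to the array's 75th percentile, red circles are MGT arrays, blue squares lacZ arrays, and lines join the means. For Myh6 and Actc1 the lacZ level is lower and the MGT level higher on day 5 than on day 3, and for Vnn1 the vectors are apart on day 3 and their means within 0.17 of each other on the later days.

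Other genes had their largest difference at day 3 or changed direction afterwards. Vnn1, the pantetheinase vanin 1, was at 1.43 and 1.55 with MGT against -1.39 and -1.41 with lacZ at day 3, and differed by 0.05, 0.17 and 0.06 on days 5, 7 and 10. Its day 3 difference exceeded the later mean by 2.80 ± 0.14. Gdpd2, a glycerophosphodiester phosphodiesterase, was at -0.70 and -0.66 with MGT against -3.42 and -3.29 with lacZ, and its later differences were 0.23, -1.13 and -1.73. Adgrd1, an adhesion G protein-coupled receptor, differed by 1.92 ± 0.10 at day 3 and by -0.41, -1.40 and -2.37 later. Gdpd2 and Adgrd1 thus changed sign between day 3 and day 10. Scg2 stayed higher with MGT throughout, but its lacZ mean was -1.93, 0.77, 3.94 and 4.58 on days 3, 5, 7 and 10, and its difference was 5.58, 3.39 and 2.75 on the 3 later days.

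Gsta3, a glutathione transferase, and Dlk1, a non-canonical Notch ligand, missed the threshold at day 3 and were lower with MGT on later days. Under 4 of 19 settings for Gsta3 and 6 for Dlk1 the day 3 fall was called, the fits to the 4 day 3 arrays and to the 8 arrays of days 3 and 5 among them. Gsta3 was at -0.02 and -0.09 with MGT against 0.34 and 0.34 with lacZ at day 3 (limma adjusted p = 0.179), and differed by -3.02, -3.62 and -3.56 later. Dlk1 was at 0.08 and 0.29 with MGT against 0.55 and 0.56 with lacZ (limma adjusted p = 0.0931), and differed by -1.50, -3.36 and -5.20 later. Their day 3 differences exceeded the later means by 3.0 ± 0.24 and 2.98 ± 0.18.

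**Figure D5:**
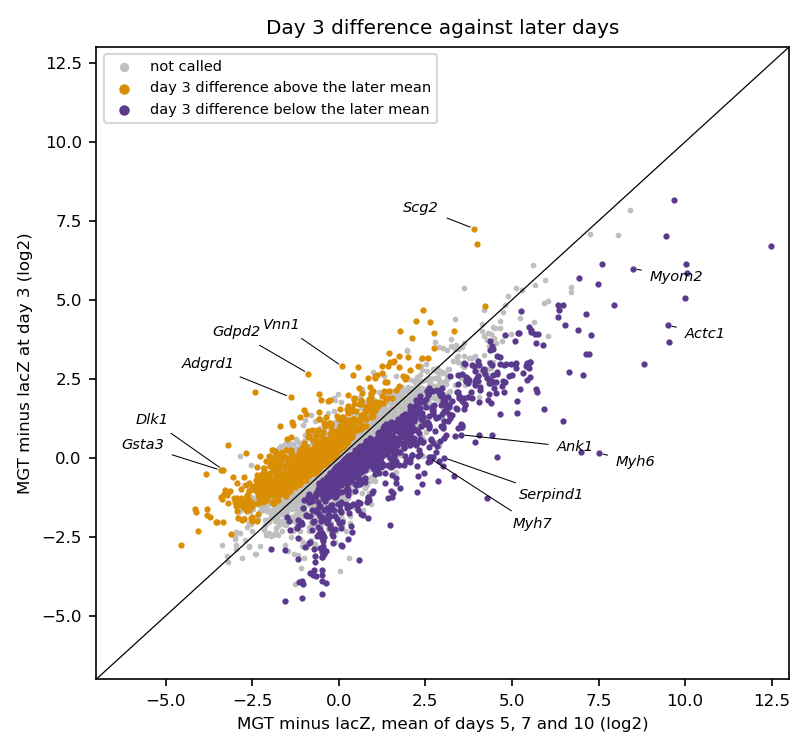
MGT minus lacZ at day 3 (y axis, log2) against the mean of the day 5, 7 and 10 differences (x axis, log2) for all tested genes. Orange and purple points are genes whose day 3 difference was above or below the later mean with an adjusted p under 0.05 (1449 and 1325 genes), grey points were not called, and the line marks equal differences.

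Between days 3 and 5, whose arrays share a slide, the difference changed for 1481 genes (8.20%), with 749 (4.15%) above and 732 (4.05%) below. These tests use the same day 3 and day 5 arrays as the tests above. Cxcl5, a neutrophil chemokine, was at 3.52 and 3.77 with MGT against 4.73 and 4.68 with lacZ at day 3 (difference -1.06 ± 0.24), and differed by -4.57 on day 5. Serpina3n, an acute phase protease inhibitor, differed by 1.44 ± 0.21 at day 3 and by -1.03 on day 5. Dpp4 differed by -1.86 at day 3 and by -4.26 on day 5. Vnn1, Gsta3 and Gdpd2, described above, completed the 6 genes furthest above the day 5 difference.

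The 6 furthest below it were Actc1, Myh6, Krt13, Akap5, Myh8 and Bfsp2. Akap5, an anchoring protein of protein kinase A, was at -0.34 and -0.43 with MGT against -0.28 and -0.22 with lacZ at day 3, and differed by 2.41 on day 5. Myh8, the perinatal skeletal myosin heavy chain, was at 2.96 and 2.96 with MGT against -0.08 and -0.08 with lacZ at day 3, a rise of 3.04 ± 0.17, and differed by 5.54 on day 5. Bfsp2, a lens filament protein, was at -3.40 and -3.61 with MGT against -0.92 and -0.94 with lacZ at day 3, a fall of 2.58 ± 0.31, and differed by -0.19 on day 5. Krt13, a keratin, differed by -0.01 ± 0.41 at day 3 and by 2.58 on day 5. The change of Krt13 was lost without lacZ replicate 1 (adjusted p = 0.0524), and that of Bfsp2 with quantile normalization (adjusted p = 0.118).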

How the data were processed

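RNA of 22 samples of mouse cells was hybridised to 22 Agilent 1-colour arrays. Per the file headers, Feature Extraction 10.7.3.1 gave the deposited spot intensity after background subtraction and detrending, with no normalization between arrays. The deposited gene table's intensity values, made with limma per the submitters' processing notes, have no stated scale or centring and served as an alternative.

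The 75th percentile of non-control spots was subtracted on the log2 scale, outlier spots were left out, and spots of 1 probe were averaged. Of 55681 probes, 38813 were well above background on both arrays of a group and kept. RefSeq accessions or symbols named 30186 probes, and each gene took its brightest probe. limma 3.58.1 (R 4.3.3) fitted 11 group means over 22 arrays. The fit was tested on simulated data. Members and lists were chosen with earlier results of these data known. Named genes are the 12 largest rises and falls seen on all 4 arrays, 6 each by bound, up to 4 called members per list and direction, and 6 per direction in each test between days. Of the called genes, 9 had probes called in opposite directions, and 17 genes lacked a value on a day 3 array. A few genes, counted in the totals of their lists, are not reported here by name. Same-numbered arrays were not paired (r = -0.027 at day 3).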

Additional observations from a re-analysis of the deposited data

Results flagged for a closer look

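The size of the MGT effect differed by day, by the test of the difference itself. For 2774 genes the day 3 difference differed from the mean of days 5, 7 and 10, and for 1481 genes it differed from that of day 5. Against the later mean, day 3 was further above by 3.55 for Gdpd2, 3.35 for Scg2, 3.31 for Adgrd1, 3.0 for Gsta3, 2.98 for Dlk1 and 2.80 for Vnn1. It was below for Myh6 (-7.37), Actc1 (-5.31), Serpind1 (-3.02), Ank1 (-2.78), Myh7 (-2.59) and Myom2 (-2.50). Against day 5 alone, day 3 was above by 3.51 for Cxcl5, 2.84 for Vnn1, 2.62 for Gsta3, 2.47 for Serpina3n, 2.44 for Gdpd2 and 2.41 for Dpp4. It was below for Actc1 (-5.49), Myh6 (-4.85), Krt13 (-2.59), Akap5 (-2.55), Myh8 (-2.50) and Bfsp2 (-2.39).

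Probes for long intergenic RNA regions, which the comparisons above do not use, also carried signal. Of 9199 such probes kept, 503 were higher and 426 lower with MGT at day 3 at a limma adjusted p under 0.05. Thus 10.1% were called, beside 30.4% of genes. These shares come from unlike fits: the probes were adjusted over all 38813 kept probes, the genes over 18061, each by its brightest probe.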

How the results depend on the processing

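Of 181 named genes called at day 3, 140 kept their call under all 19 alternative settings, 40 lost it under at least 1, and Nkd2 was reversed: 1.38 in the main fit, -0.0466 in the deposited table and -0.0767 with the mean of its probes. The difference was smaller by over 1.5 times for 38 of the 181 with normexp and for 31 of 180 in the deposited table. Array weights by group gave 9166 called genes (3579 higher, 5587 lower) against 5494 in the main fit, 5313 against 2774 for day 3 versus the later mean, and 4029 against 1481 for day 3 versus day 5. Background correction by normexp gave 2172 lower genes and 866 for day 3 versus day 5. The fit to the 8 arrays of days 3 and 5 gave 2930 for the latter comparison, and leaving out day 14 lacZ replicate 2, chosen after seeing the data, gave 4061 lower genes, 3803 for the later mean and 2242 for day 5. Leaving out each day 3 array in turn gave 3750 to 3986 called genes (2133 to 2308 lower), 1619 to 1794 for the later mean and 886 to 968 for day 5; the array left alone is then assumed to vary like the other groups. The causes of these moves were not tested. Same-numbered arrays did not deviate together (r = -0.027 at day 3), and a replicate block gave 5145 calls on the 4 arrays and 5060 within each day. Of 988 list counts under alternatives, 167 moved by over 1.5 times. Signal over background limits the dimmest genes to bounds.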
